A study of Mus musculus with 4 samples.

Results

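The genes described here are 10 regulators of the G1 phase of the cell cycle: the D-type cyclins Ccnd1, Ccnd2 and Ccnd3, the E-type cyclins Ccne1 and Ccne2, the kinases Cdk4 and Cdk6, and the CDK inhibitors Cdkn1a (p21), Cdkn1b (p27) and Cdkn2c (p18). They were chosen by name and found by symbol among the 30041 genes listed for each sample, and all 10 were found. RNA-seq was done on purified splenic B cells of C57BL/6 background, cultured with LPS for 72 h, in 2 control and 2 cKO samples. In the cKO mice, Nfkbiz, which encodes the nuclear protein IκB-ζ, is deleted in B cells: they carry Nfkbiz fl/Δ and Mb1 cre/+, whereas the controls carry Nfkbiz fl/Δ without Cre. All 4 samples therefore share the floxed and the Δ allele. Cre is expressed from the Cd79a (Mb1) promoter, and because the controls lack it, the presence of Cre and the loss of Nfkbiz cannot be told apart. The labels give the LPS concentration as 20 mg/ml, and the methods of the study give the same figure in μg/ml. Neither the age of the mice nor whether a sample was a single mouse or a pool is given in the sources used here, so p-values measure the spread between these samples, which may be technical.

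D-type cyclins are made when a resting cell receives a mitogen. They bind CDK4 and CDK6, the complexes phosphorylate the retinoblastoma protein, and E2F factors are released to switch on the E-type cyclins and the genes of DNA synthesis. p21 and p27 bind cyclin-CDK complexes, while p18 is an INK4 inhibitor that binds CDK4 and CDK6 themselves. In B cells, cyclin D2 is the D-type cyclin known for its induction by mitogens, p27 is known as a marker of quiescence, and p18 is known for its part in the cell cycle exit of plasma cells. The study followed division of such cultures with the dye CFSE, which is diluted at each division, and described less of it in cKO B cells after LPS. The comparison here asks how the transcripts of the G1 machinery differed in the same kind of culture. The CFSE data were not analysed here.

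Among the 10 genes, none passed the test between cKO and control B cells. The 3 with the most negative log2 fold changes were Ccnd2, Cdkn1a and Cdk6, at 0.584, 0.659 and 0.735 of the control level by the fit. Ccnd3, Cdkn1b and Cdkn2c had log2 fold changes between -0.04 and 0.02. The values are the authors' RNA-seq scores, which have no stated unit and whose low values fall on steps as reads per exon base would, so that levels can be set side by side between genes on that reading. Differences are log2 fold changes, cKO minus control, of score + 0.0001, from limma with Benjamini-Hochberg adjustment over the 9727 genes that reached a score of 0.005 in some sample. Of the 10 genes, 9 passed that filter and Ccnd1 did not. With limma, 0 of the 9 had an adjusted p under 0.05, in a table where 2.07% of all genes passed, 1.25% as lower and 0.812% as higher in cKO. By the unadjusted p, 3 of the 9 were lower at 0.05 and none was higher, beside 11.5% and 10.8% of all genes. The median log2 fold change of the 9 was -0.22, with 8 below 0, beside a median of -0.01 over all genes tested, of which 5037 were below 0. No member was below 0.5-fold or above 2-fold by the ratio of geometric means, a rule that 0.864% and 1.15% of all genes met. The highest cKO score lay under the lowest control score for 5 of the 9 (Ccnd2, Ccne2, Cdk4, Cdk6 and Cdkn1a), the reverse held for 0, and all genes split into 30.1% and 28.1% in this way. With 2 samples against 2, an exact two-sided permutation test cannot give a p below 0.33.

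**Figure D1:**
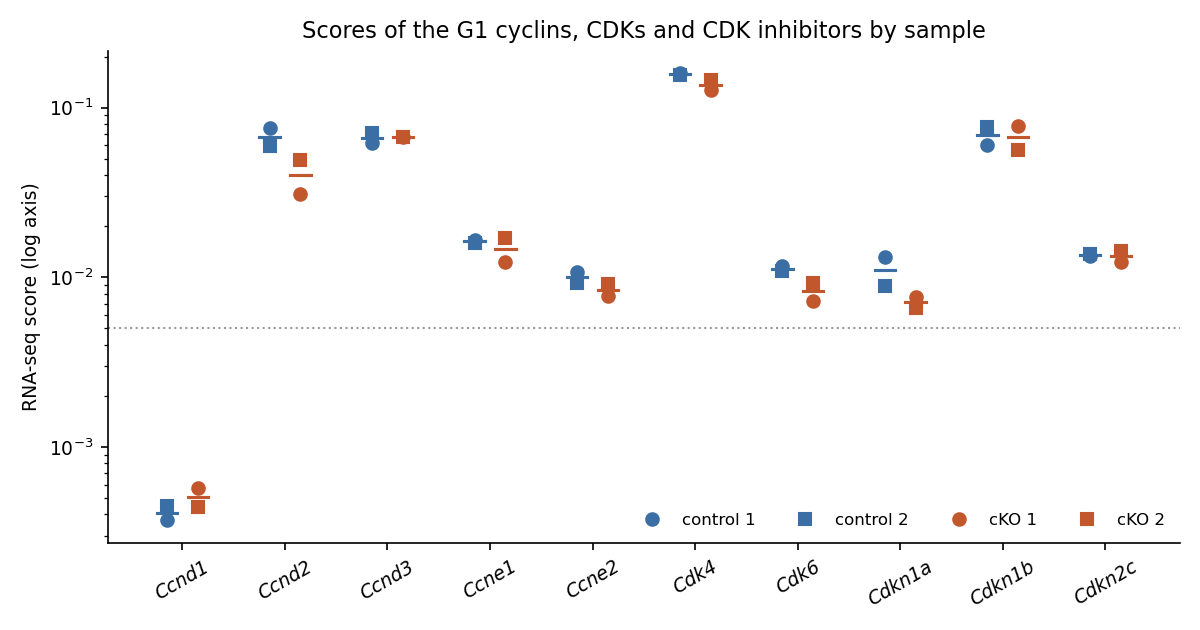
RNA-seq score (log axis) of each member in control 1, control 2, cKO 1 and cKO 2, with a short line at each group mean and a dotted line at the filter of 0.005. Cdk4 stands highest, Ccnd1 lies under the filter in every sample, and the control and cKO symbols of Ccnd3, Cdkn1b and Cdkn2c overlap.

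The 4 libraries were close in total, with summed scores of 604.2 to 637.6. Nfkbiz, the targeted gene, had scores of 0.0241 and 0.0226 in the controls, against 0.0127 and 0.0116 in the cKO samples (log2 fold change -0.94, limma adjusted p = 0.0282, or 0.203 without a filter, 0.0509 without the variance trend, 0.13 without cKO 1 and 0.0885 without cKO 2). That score covers all exons of the gene, deleted or not. The B cells had been purified by depleting cells that carry CD43, CD4 or Ter-119. The B cell markers Ms4a1, Cd22, Pax5, Blnk, Cr2, Cd79a and Cd79b were all above 0 in all 4 samples. Cd79a, whose locus drives Cre, had a log2 fold change of -0.78 (limma adjusted p = 0.0294). Of 11 myeloid markers, 6 were above 0 in all 4 samples, and S100a9 and Elane were listed at 0 in all 4. Their summed score was 0.172 and 0.167 in the controls, against 0.195 and 0.202 in the cKO samples. Itgam made up most of each sum but overlapped between the groups, at 0.141 and 0.15 against 0.135 and 0.158. Most of the rise was in Lyz2, at 0.0205 and 0.0112 in the controls, against 0.0485 and 0.0329 in the cKO samples. S100a8 and Ly6g had lower means in cKO. Of 12 T and NK cell markers, 8 were above 0 in all 4 samples, Gzma was listed at 0 in all and Cd4 in 3. Their summed score was 0.00328 and 0.0032 in the controls, against 0.00625 and 0.00575 in the cKO samples. Both sums were higher in the 2 cKO samples. The 6 erythroid markers summed to 0.0134 in control 1 and to between 0.00218 and 0.00263 in the other samples. The part of these cells in the values below was not tested. In bulk RNA, fewer cells of a type and less RNA per cell cannot be told apart.

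The D-type cyclins were made up of Ccnd2 and Ccnd3 in nearly equal parts in control B cells, with hardly any Ccnd1. Ccnd2 (Entrez 12444; minus strand of chromosome 6 on NCBIM37, 127075797 to 127101066, 5 exons) encodes cyclin D2. It had scores of 0.0758 and 0.0593 in the controls, against 0.0311 and 0.049 in the cKO samples. Each cKO sample lay below each control sample, with cKO 1 the lowest of the 4 and the 2 cKO scores 1.57-fold apart. The means were 0.0675 ± 0.0117 (SD, n = 2) and 0.0401 ± 0.0126 (SD, n = 2). The log2 fold change was -0.78 (standard error 0.231, 95% interval -1.35 to -0.21, limma adjusted p = 0.146), and 1.4% of the genes tested had a lower one. Leaving out a sample moved it from -1.10 (without cKO 2) to -0.45 (without cKO 1), with -0.60 without control 1 and -0.95 without control 2. Without cKO 2, Ccnd2 would be the only member below 0.5-fold.

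Ccnd3, encoding cyclin D3, showed no such gap. Its scores were 0.0621 and 0.0711 in the controls, against 0.0674 and 0.0673 in the cKO samples, and the cKO values lay between the controls. The log2 fold change was 0.02, and its 95% interval of -0.22 to 0.26 spans ratios from 0.861 to 1.19. Ccnd3 lies on the plus strand of chromosome 17 (NCBIM37, 47642000 to 47736632) and shares 353 exon bases with Bysl on the other strand. Because strand is not stated for the counting, reads there cannot be assigned to one gene.

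Ccnd1, encoding cyclin D1, had scores of 0.00037 and 0.00045 in the controls, against 0.00057 and 0.00044 in the cKO samples. With the step of the low scores taken as 1 read, these correspond to about 25 to 43 reads per library at its 3835 annotated exon bases, fewer if a read is worth several steps. The highest and the second lowest of the 4 scores are both from cKO samples, so the groups overlap. Ccnd1 shares 818 of those bases with Oraov1 on the opposite strand, whose scores were 0.00718 to 0.00936, and which of the 2 genes the reads came from cannot be told apart.

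As a share of the 3 D-type cyclin scores, Ccnd2 took 54.8% and 45.3% in the controls, against 31.4% and 42% in the cKO samples. Ccnd3 took 44.9% and 54.4% in the controls, against 68% and 57.7% in the cKO samples. The ratio of Ccnd2 to Ccnd3 was 1.22 and 0.833 in the controls, against 0.462 and 0.728 in the cKO samples. Neither of these shares overlapped between the groups, but the distance from control 2 to cKO 2 was smaller than that between the 2 samples of either group. Because Ccnd1 took at most 0.575%, the 2 shares and the ratio are nearly the same measure and count as 1 observation. Together the 3 genes summed to 0.138 and 0.131 in the controls, against 0.0991 and 0.117 in the cKO samples.

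**Figure D2:**
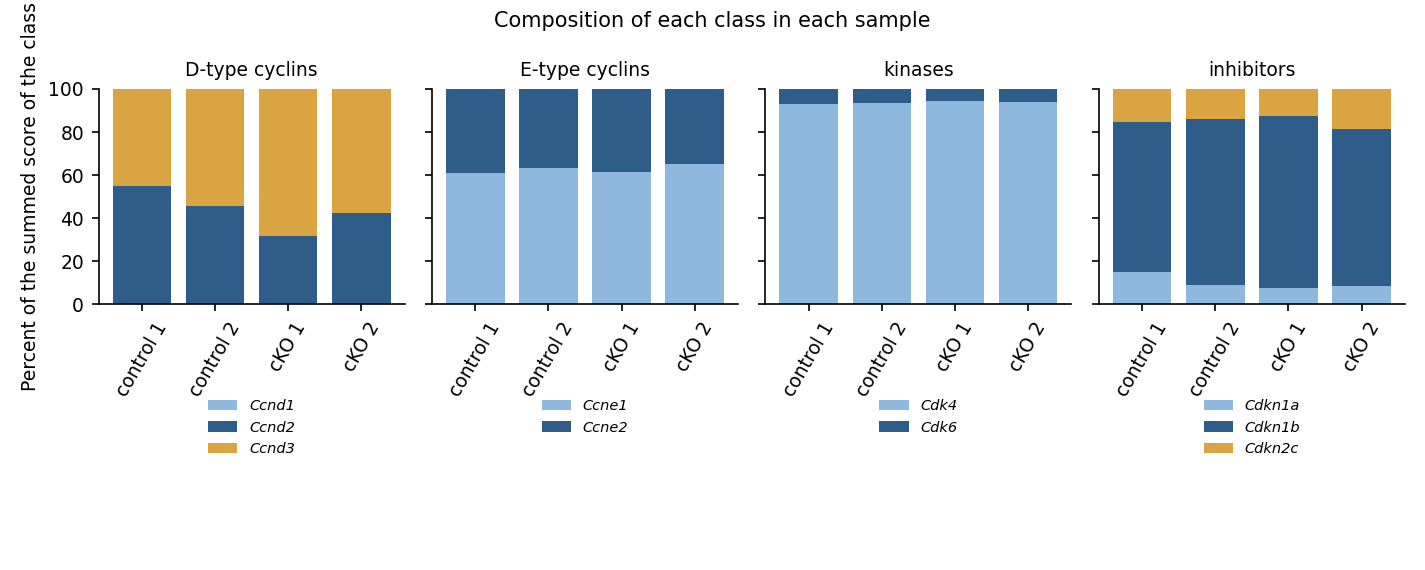
Stacked bars of the percent that each gene took of the summed score of its class, in each of the 4 samples. In the D-type cyclins, Ccnd2 took 45.3% or more of the bar in control samples and 42% or less in cKO samples, Ccnd1 is too small to see, and Cdk4 took at least 93.2% of the kinase bar in every sample.

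The E-type cyclins activate CDK2 at the entry into S phase and are themselves E2F targets. Ccne1 had scores of 0.0167 and 0.016 in the controls, against 0.0123 and 0.0171 in the cKO samples. The 2 cKO samples stood on either side of the controls, 1.39-fold apart, against 1.04-fold between the controls. Its log2 fold change was -0.17 (95% interval -0.57 to 0.23, limma adjusted p = 0.557) and turned to 0.06 without cKO 1. Ccne2 scored 0.0107 and 0.00926 in the controls, against 0.00775 and 0.00914 in the cKO samples. The groups did not overlap, but the lower control and the higher cKO score were only 0.00012 apart. The log2 fold change of -0.24 had a 95% interval of -0.58 to 0.10 (limma adjusted p = 0.351), and with a sample left out it ranged from -0.12 (without cKO 1) to -0.36 (without cKO 2). Ccne2 shares 609 exon bases with Ints8 on the other strand. The split between the pair overlapped between the groups, with Ccne1 at 60.9% and 63.3% of their sum in the controls, against 61.3% and 65.1% in the cKO samples.

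Of the kinases, Cdk4 was the most highly scored of the 10 genes, above 94.4% of all genes tested by its mean score, and Cdk6 was far lower. Their promoter windows are shown because both hold the E-box CACGTG, the sequence bound by MYC with MAX and by related factors. RefSeq windows (GRCm38.p6) from 250 bases before to 50 bases after an annotated start were given for 7 of the 10 members, as 10 windows. Capitals mark the E-box in the sequences below.
Cdk4, chr10:127063285-127063584, plus strand: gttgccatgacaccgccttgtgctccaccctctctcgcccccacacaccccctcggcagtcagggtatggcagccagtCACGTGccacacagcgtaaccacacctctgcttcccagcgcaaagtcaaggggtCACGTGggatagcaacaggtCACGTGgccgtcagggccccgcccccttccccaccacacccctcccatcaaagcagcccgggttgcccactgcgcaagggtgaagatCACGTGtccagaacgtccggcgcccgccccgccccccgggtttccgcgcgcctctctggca
Cdk6, chr5:3343643-3343942, plus strand: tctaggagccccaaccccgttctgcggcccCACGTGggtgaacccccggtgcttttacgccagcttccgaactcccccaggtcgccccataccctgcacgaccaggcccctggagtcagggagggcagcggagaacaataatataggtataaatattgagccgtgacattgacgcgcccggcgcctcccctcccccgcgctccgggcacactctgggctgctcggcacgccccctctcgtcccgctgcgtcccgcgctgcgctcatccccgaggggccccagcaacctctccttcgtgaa
The Cdk4 window holds the E-box 4 times and the Cdk6 window once. The E-box reads the same on both strands and overlaps none of the other motifs searched. It was present in 3 of the 10 member windows (Cdk4, Cdk6 and a Cdkn2c window) and in 7.15% of all 32851 windows. The E2F motifs TTTCCCGC, TTTGGCGC, TTTCGCGC and TTTGCCGC, searched on both strands, were in none of the 10 member windows and in 2.26% of all windows. The NF-κB consensus, also searched on both strands, was in none of the 10 and in 8.46% of all windows. A match describes letters only and shows no binding.

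Cdk4 (Entrez 12567; plus strand of chromosome 10 on NCBIM37, 126500590 to 126504976) scored 0.16 and 0.157 in the controls, against 0.126 and 0.145 in the cKO samples. The cKO samples were the lower pair, and the 2 controls differed by 1.02-fold. Its log2 fold change was -0.22 (standard error 0.095, 95% interval -0.46 to 0.01, limma adjusted p = 0.24). Leaving out a sample gave from -0.33 (without cKO 2) to -0.12 (without cKO 1). Cdk4 shares 604 exon bases with Tspan31 on the other strand, which scored 0.0509 and 0.0526 in the controls, against 0.063 and 0.0599 in the cKO samples, with a log2 fold change of 0.25.

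Cdk6 (Entrez 12571; plus strand of chromosome 5 on NCBIM37, 3343893 to 3523218) scored 0.0116 and 0.0108 in the controls, against 0.00725 and 0.00929 in the cKO samples. Again both cKO samples were below both controls, and cKO 1 was the lowest. The means were 0.0112 ± 0.00053 (SD, n = 2) and 0.00827 ± 0.00144 (SD, n = 2). The log2 fold change was -0.44 (standard error 0.146, 95% interval -0.80 to -0.09, limma adjusted p = 0.17), with -0.62 without cKO 2 and -0.27 without cKO 1. The ratio of Cdk4 to Cdk6 was 13.8 and 14.5 in the controls, against 17.4 and 15.6 in the cKO samples. Cdk6 shares 60 of its 3735 exon bases with Gm17590 on the other strand.

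The inhibitors differed among themselves, with Cdkn1b at 69.4% to 79.8% of their summed score in the 4 samples. Cdkn1a encodes p21, a target of p53. Its more upstream promoter window is shown because it alone of the 10 held the p53 half-site, here in capitals. The half-site was present in 8.36% of all windows on either strand, and full p53 sites were not searched.
Cdkn1a, chr17:29090729-29091028, plus strand: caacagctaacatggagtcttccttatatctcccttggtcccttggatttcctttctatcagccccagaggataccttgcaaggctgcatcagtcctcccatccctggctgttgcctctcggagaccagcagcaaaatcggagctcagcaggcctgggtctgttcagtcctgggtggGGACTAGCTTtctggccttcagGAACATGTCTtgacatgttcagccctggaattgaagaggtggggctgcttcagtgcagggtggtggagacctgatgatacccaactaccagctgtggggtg
The half-site occurs at 2 places there, 73 and 51 bases before the start.
Cdkn1a (Entrez 12575; plus strand of chromosome 17 on NCBIM37, 29227924 to 29237667) scored 0.0132 and 0.00894 in the controls, against 0.00764 and 0.00662 in the cKO samples. The cKO samples were both lower, while the widest gap within a group was between the controls, at 1.47-fold. The means were 0.0111 ± 0.00298 (SD, n = 2) and 0.00713 ± 0.000721 (SD, n = 2), and the log2 fold change was -0.60 (standard error 0.201, 95% interval -1.10 to -0.11, limma adjusted p = 0.175). Without control 2 it was -0.88 and passed the threshold (limma adjusted p = 0.0251), and without control 1 it was -0.33 and did not (0.42). With a control left out, the spread comes from the 2 cKO samples, and the lone control is assumed to vary like them.

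Cdkn1b, encoding p27, scored 0.0602 and 0.0774 in the controls, against 0.0785 and 0.0565 in the cKO samples. The highest and the lowest of the 4 values both came from cKO samples. The log2 fold change of -0.04 had the wide 95% interval of -0.51 to 0.43, or ratios of 0.704 to 1.35 (limma adjusted p = 0.926). Its sign turned with the sample left out, from -0.27 (without cKO 1) to 0.20 (without cKO 2), and it was 0.02 with quantile normalization. Cdkn2c, encoding p18, was the steadier of the 2, at 0.0134 and 0.0138 in the controls, against 0.0122 and 0.0144 in the cKO samples. Its log2 fold change was -0.03 (95% interval -0.31 to 0.24, limma adjusted p = 0.876), and without cKO 1 it was 0.08. The summed inhibitor score divided by the summed D-type cyclin score was 0.627 and 0.765 in the controls, against 0.992 and 0.663 in the cKO samples, so this ratio overlapped between the groups.

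**Figure D3:**
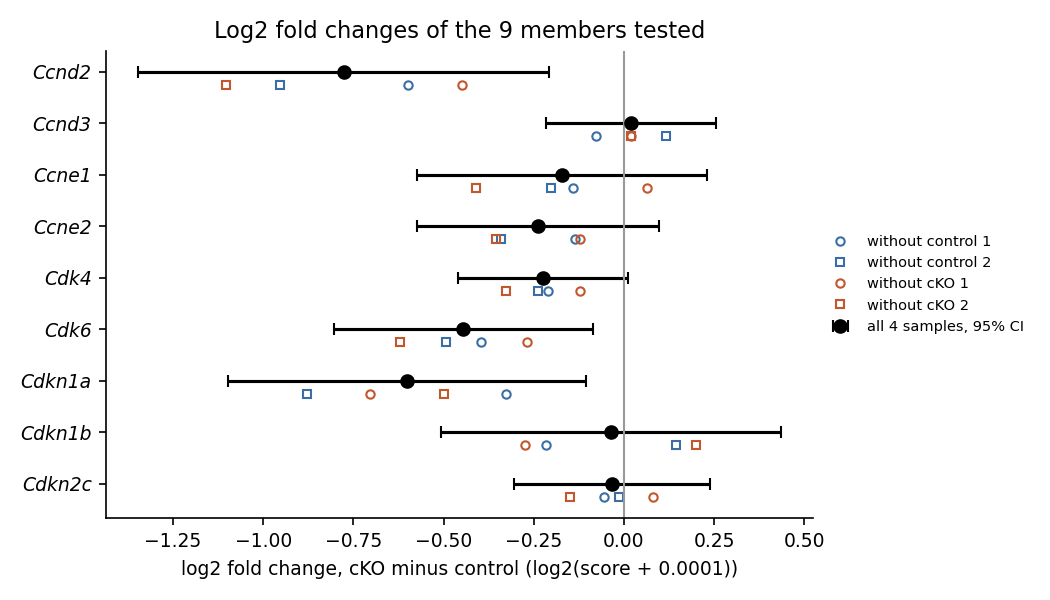
Log2 fold change of each tested member with all 4 samples (black, bars are limma's 95% intervals) and with 1 sample left out (open symbols below). The intervals of Ccnd2, Cdk6 and Cdkn1a lie below 0 before adjustment, and those symbols of Ccnd2 range from -1.10 to -0.45.

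By mean score over the samples, the order from the top was Cdk4, then Cdkn1b, Ccnd3 and Ccnd2, then Ccne1 and Cdkn2c, then Cdk6, Ccne2 and Cdkn1a, with Ccnd1 last. In control samples the ranges of Ccnd2, Ccnd3 and Cdkn1b overlapped one another, as did those of Cdkn1a with Cdk6 and Ccne2, and those of Cdkn1a with Cdkn2c did not. In cKO samples both Ccnd2 scores lay below both Ccnd3 scores.

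The rest of the pathway was read from 8 lists chosen by function, with 76 of 81 genes tested. Of these, 1 was lower and 0 higher by the limma adjusted p, beside 1.25% and 0.812% of all genes. By the unadjusted p 22 were lower and 5 higher, beside 11.5% and 10.8% of all genes.

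The gene that fell was Cdkn2a. It encodes p16, an INK4 inhibitor like the p18 of Cdkn2c, and, in another reading frame, the p53 activator p19ARF. The score covers both products together. Cdkn2a scored 0.0407 and 0.0213 in the controls, against 0.00431 and 0.00526 in the cKO samples. Both cKO values were far under both controls, which themselves differed. The log2 fold change was -2.60 (standard error 0.299, 95% interval -3.34 to -1.87, limma adjusted p = 0.0294). The call was lost without a filter (0.205), without the variance trend (0.0595), without cKO 1 (0.153) and without cKO 2 (0.0824), settings in which its log2 fold change stayed between -2.75 and -2.46. Of the other inhibitors, Cdkn2d, encoding p19INK4d, had a log2 fold change of 0.03. Cdkn2b, encoding p15, was under the filter, with scores of 0.00426 and 0.00191 in the controls, against 0.0012 and 0.00107 in the cKO samples, and Cdkn1c, encoding p57, scored at most 0.00024.

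Cdk2, the partner of the E-type cyclins, scored 0.0482 and 0.0531 in the controls, against 0.0518 and 0.0512 in the cKO samples, a log2 fold change of 0.02 (95% interval -0.19 to 0.24). Cyclin A2, its partner in S phase, scored 0.0717 and 0.0623 in the controls, against 0.0464 and 0.0528 in the cKO samples. Ccna2 thus lay lower in both cKO samples, with a log2 fold change of -0.43 (95% interval -0.71 to -0.16, limma adjusted p = 0.119). Leaving out a sample moved it from -0.53 (without control 2) to -0.33 (without control 1). Mnat1, a subunit of the CDK-activating kinase, had a log2 fold change of -0.33. None of the 5 genes tested in this list passed.

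None of 12 pocket protein, E2F and DP genes passed, and 8 of the 12 had a negative log2 fold change (median -0.14). Rb1, encoding the retinoblastoma protein, scored 0.0198 and 0.0246 in the controls, against 0.031 and 0.0258 in the cKO samples. Its log2 fold change was 0.36 (limma adjusted p = 0.224). E2f1 stood at -0.12, E2f5 at -0.58 and Tfdp2, a dimerization partner of E2F, at 0.52 (limma adjusted p of 0.471, 0.222 and 0.13).

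Among 14 genes of CDK phosphorylation and of cyclin or inhibitor turnover, 0 passed and the median was -0.04. Fbxw7, the ubiquitin ligase subunit that recognizes cyclin E, scored 0.00811 and 0.00993 in the controls, against 0.0142 and 0.0136 in the cKO samples. Both cKO scores exceeded both controls, and the log2 fold change was 0.62 (limma adjusted p = 0.0775). Leaving out a sample moved it from 0.48 (without control 1) to 0.77 (without control 2). Skp2, the ubiquitin ligase subunit that recognizes p27, had -0.35 (limma adjusted p = 0.419).

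The 16 E2F targets of the G1/S transition, which include the Mcm helicase genes, had log2 fold changes from -0.42 to -0.10 (median -0.24). None passed the threshold, 8 were lower by the unadjusted p at 0.05 (11.5% of all genes were), and 16 of 16 were negative, as were 5037 of the 9727 genes tested. Mcm4, a helicase subunit gene, stood at -0.36 (limma adjusted p = 0.11). The 12 G2/M genes gave a like picture, with a median of -0.32, 12 of 12 negative, 8 lower by the unadjusted p against the same shares of all genes, and none past the threshold. Cdc25c, a phosphatase that activates CDK1, stood at -0.58 and the checkpoint kinase gene Bub1 at -0.50 (limma adjusted p of 0.143 and 0.114).

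The 2 cKO samples were not alike in these groups, and in 2 of them the controls differed as well. The G2/M genes summed to 0.683 and 0.642 in the controls, against 0.516 and 0.568 in the cKO samples. The E2F targets summed to 1.4 and 1.31 in the controls, against 1.06 and 1.22 in the cKO samples. The members summed to 0.424 in each control, against 0.351 and 0.375 in the cKO samples. cKO 1 scored below cKO 2 for 15 of the 16 E2F targets, 12 of the 12 G2/M genes and 6 of the 9 members, beside 53.7% of all genes tested. Of the members with groups apart, Ccnd2, Ccne2, Cdk4 and Cdk6 were among these 6, while Cdkn1a was higher in cKO 1 and stood at -0.70 without it.

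The p53 list gives the company of Cdkn1a. Of its 11 genes, 0 passed and 10 had negative log2 fold changes (median -0.20). Ccng1, a p53 target encoding cyclin G1, scored 0.087 and 0.0658 in the controls, against 0.0532 and 0.055 in the cKO samples, a log2 fold change of -0.48 (limma adjusted p = 0.142, and 0.013 without control 2). As with Cdkn1a, control 1 was the highest of the 4. Phlda3 had -0.46 (limma adjusted p = 0.401). The 4 tested FOXO and KLF genes, among which FOXO factors are known to raise p27, had a median of 0.24 and 0 passed. Foxo3 had 0.30 and Foxo4 had 0.27 (limma adjusted p of 0.299 and 0.217).

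**Figure D4:**
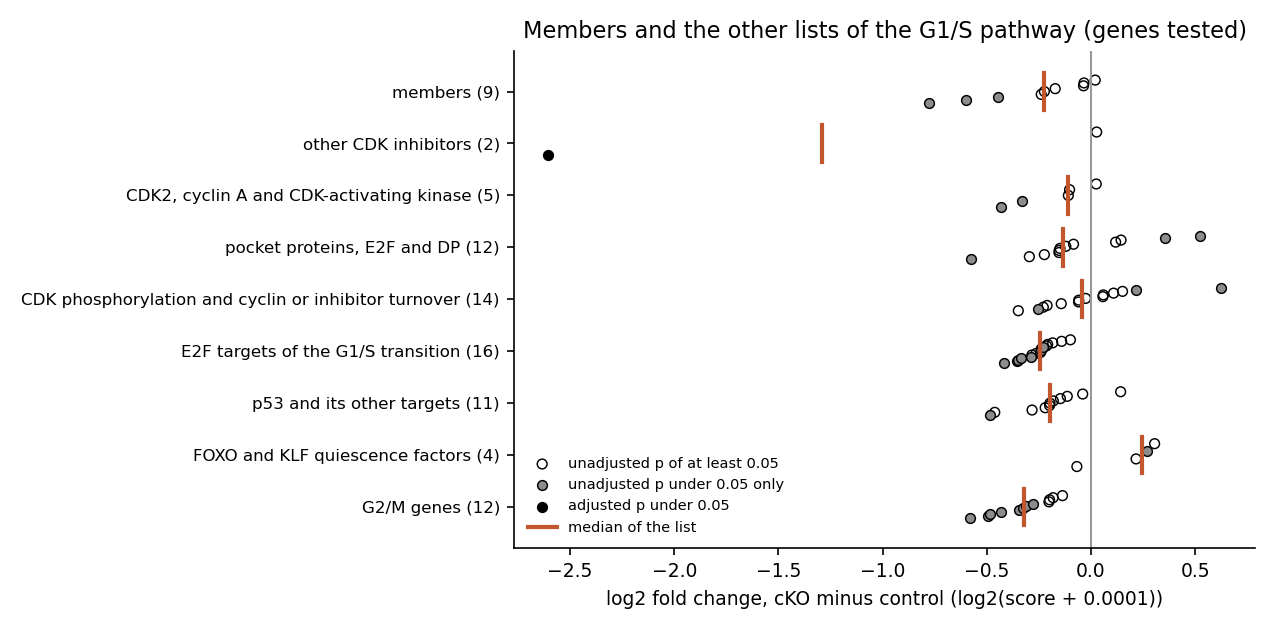
Log2 fold change of every tested gene of the members and of the 8 other lists (number tested in brackets), with filled black for an adjusted p under 0.05, grey for an unadjusted p under 0.05 only, open for the rest, and a line at each list's median. Cdkn2a at -2.60 is the only black symbol, and the E2F target and G2/M lists lie wholly below 0.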

How the data were processed

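Per the labels and the methods of the study, poly(A) RNA was sequenced as 38-base reads, which the authors mapped to mm9 with TopHat 2.0, with rRNA and tRNA reads removed. The authors deposited one score per gene and sample; its unit and the step that gave it are not given in the sources used here, nor is the strand setting. From the scores, log2(score + 0.0001) was fitted in limma 3.58.1 (R 4.3.3; lmFit, then eBayes with its trend option) for the 9727 genes reaching 0.005 in a sample. The p-values were adjusted by Benjamini-Hochberg over these genes, with a threshold of 0.05. The fit was tested on simulated data. The pseudocount understates changes of low genes. Scores are not counts, so no count model was used. Reads were inferred from the step of score times exon length (GENCODE on NCBIM37, the same assembly as mm9). The step was chosen to fit best in single-transcript genes of 600 to 1600 exon bases. Of their low values, 74.0 to 81.3% lay within 0.2 of a whole step. The step was fitted to these same values, and part of any values on no step would also lie that close. The share therefore overstates the fit. The members have 2223 to 5701 exon bases, so their reads are extrapolated. The fold rule used geometric means with 0 set to 0.00001.

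Named were the 10 members, the targeted gene, Rb1, E2f1, Cdk2 and Ccna2, and, of each list, up to 4 genes past the threshold or, where none passed, the 2 with the largest absolute log2 fold change. Of the genes so named, some are not reported here. Of the genes that share exon bases with a member, and of those in brief lists of markers, the names were chosen after their values were seen, as were Cdkn2b, Cdkn2d and Cdkn1c. The members, the lists and the tests were chosen with earlier results of these data known. Tables and figures were made with Python 3.11.15 and matplotlib 3.10.9. Flow cytometry, RT-PCR and ChIP were not analysed here.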

Additional observations from a re-analysis of the deposited data

How the results depend on the processing

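Members called by limma numbered 0 lower and 0 higher under every planned setting that kept all 4 samples. Only 4 members were tested with the filter above 0.05. With a sample left out, from 0 to 1 were lower (Cdkn1a, without control 2) and 0 higher. Same-numbered samples did not deviate together (Pearson -0.145, Spearman -0.291 over 9727 genes), and with the replicate block no member passed. Over all genes, 122 were lower and 79 higher, against 180 and 177 with the replicate block, 22 and 11 without the variance trend, 88 and 35 with the filter above 0.05, and 0 and 0 once the filter was dropped (1538 and 1665 by the unadjusted p). With the crossed replicate block, chosen after seeing the data, they were 230 and 212, with 1 member lower (Ccnd2, adjusted p = 0.0365). Leaving out a sample gave from 0 to 391 lower and from 0 to 439 higher, with 0 of each without cKO 1 and without cKO 2, where 3 samples remain, and the highest numbers without control 2. Of the pathway list genes, 1 was lower, against 0 with no filter, with the filter above 0.05 or without the trend, 2 with the crossed replicate block and 0 to 4 with a sample left out; 0 to 1 were higher with a sample left out. Members below 0.5-fold or above 2-fold numbered 0 to 1 with a sample left out. Dropping the filter let in more genes, the stricter filter fewer, and leaving out a sample left 1 sample in its group, assumed to vary like the other group. With the filter above 0.05, 26 of the 76 pathway list genes were tested. Cdkn2a scored at most 0.0407 and was not among them, so it could not be called there. The cause of the other changes was not tested.

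Of 351 values of 29 named genes under these settings, 330 kept their direction and side of the threshold, 6 passed it, 8 no longer did and 7 changed sign. Ccnd1, counted here as well, had no test and so no side of the threshold. Its values were judged by direction and by a shift smaller than the SD within groups. The sign changed for Ccnd3 (-0.078 to 0.117 with a sample left out), Ccne1 (-0.409 to 0.064), Cdkn1b (-0.273 to 0.201, and 0.019 with quantile normalization), Cdkn2c (-0.149 to 0.081) and Cdk2 (-0.043 to 0.093). The inferred depth limits Ccnd1 most, whose groups overlap.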
